A study of Homo sapiens with 6 samples.

Results

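The genes described here encode the 3 subunits of translation initiation factor eIF2 (EIF2S1, EIF2S2 and EIF2S3) and the 5 subunits of its exchange factor eIF2B (EIF2B1 to EIF2B5). These 8 genes were taken by name from the 29538 genes of the deposited count table. The set was selected partly on a measured value, the strong fall of EIF2S1 after BYSL depletion, so the differences between groups for these genes are given as a description. All 8 passed the filter on low counts, which left 16412 genes. MDA-MB-231, an established human breast cancer line, was transfected with 160 pmol per well of a negative-control siRNA (siNC) or of a single siRNA against BYSL (siBYSL), and RNA was taken at 48 h. BYSL encodes bystin, a maturation factor of the small ribosomal subunit. Each group held 3 libraries from separate biological replicates. Only 1 siRNA was used against BYSL, and no rescue or untransfected group was analysed here.

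eIF2 is the GTPase that brings the initiator methionyl-tRNA to the small ribosomal subunit. After each round of initiation it is released with GDP and must be recharged by eIF2B. Phosphorylation of the α subunit on a conserved serine turns eIF2 into an inhibitor of eIF2B, which lowers general initiation and favours translation of a few mRNAs such as ATF4. This is the integrated stress response, and the α subunit encoded by EIF2S1 is its point of control. These data measure mRNA only, and neither protein nor phosphorylation was measured.

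The libraries held 27754883 to 32088817 counts. BYSL itself fell from 99.9 ± 4.9 to 16.4 ± 0.94 CPM (counts scaled to TMM-adjusted library size; mean ± SD, n = 3 here and throughout; edgeR adjusted p = 9.4e-09). The mesenchymal marker VIM averaged 2404 CPM in siNC, and the 9 mesenchymal markers summed to 5643 to 5744 CPM in siNC and 4912 to 5233 CPM in siBYSL. Of these 9, 4 fell (VIM, AXL, CAV1 and MSN) and 3 rose (CD44, FN1 and TGFBI) at an edgeR adjusted p under 0.05. Over all genes tested, 18.4% fell and 18.5% rose at that threshold. Among luminal markers, the receptor genes ESR1 and PGR were close to zero at 0.024 and 0.26 CPM in siNC, while the keratin KRT8 was at 704.7 CPM. The luminal list summed to 1684 to 1811 CPM in siNC and 1607 to 1959 CPM in siBYSL. Of its 7 tested genes 3 rose (CDH1, EPCAM and ERBB2) and 1 fell (KRT19), beside the same shares over all genes. CDH1 was at 4.48 CPM in siNC and 9.18 in siBYSL (log2 fold change 1.03, edgeR adjusted p = 6.6e-05), and EPCAM at 14.4 and 20.9 CPM. KRT19 went from 379 CPM in siNC to 298.7 in siBYSL (-0.34, edgeR adjusted p = 0.0075). KRT8, KRT18 and GATA3 did not pass the threshold. The part of these shifts in the other differences was not tested. Of 10 markers of other cells 8 were in the table, and their summed level ran from 24.1 to 26.6 CPM in siNC and from 26.3 to 31.4 CPM in siBYSL. Library siBYSL 3 stood apart: leaving it out raised the number of genes called from 6059 to 8004, while leaving out any other single library gave 4226 to 5646.

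Short sequences are shown here because the 3′ UTR of EIF2S1 held a match to the seed, bases 2 to 8, of the antisense (guide) strand of the BYSL siRNA. The strand is copied from the labels, 5′ to 3′, with its seed in capitals. The sites are copied from GENCODE 29 transcripts (build GRCh38) in the sense of the mRNA, with the heptamer that pairs with the seed in capitals.
siRNA antisense strand: uAUUCAGCaacgucaucuctt
EIF2S1 site, chr14:67383521-67383550, plus strand: gtattgaaaacttcaaaGCTGAATattttt
EIF2B1 site, chr12:123621291-123621320, minus strand: agaggcaagaaacacttGCTGAATctgcat
EIF2AK1 site nearer the stop codon, chr7:6023849-6023878, minus strand: agatggcgtatgattttGCTGAATtttaaa
EIF2AK1 site farther from it, chr7:6023316-6023345, minus strand: gggcacatcgtctggatGCTGAATttcatc

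The EIF2S1 heptamer began at base 98 after the stop codon, in the last of the 8 exons of transcript EIF2S1-201, whose 3′ UTR is 3076 bases long. It was followed by an A and so formed the octamer GCTGAATA, which the sites of EIF2B1 and EIF2AK1 did not. Of 3 annotated 3′ UTRs of EIF2S1, 2 held the heptamer, and the shortest, of 25 bases, did not reach it. Of the 19 bases that face the guide strand, 11 matched at the EIF2S1 site, 12 at the EIF2B1 site, and 13 and 10 at the nearer and farther EIF2AK1 sites. The heptamer GCTGAAT, searched on the mRNA strand, was present in the longest 3′ UTR of 11.9% of 13069 tested genes, and the octamer in that of 3.15%. Long 3′ UTRs hold it more often: of the 2727 genes with a 3′ UTR at least as long as that of EIF2S1, 29.3% did. The other 6 subunit genes (EIF2S2, EIF2S3 and EIF2B2 to EIF2B5) had no match to the guide seed in any annotated 3′ UTR. The longest 3′ UTR of EIF2S1 also held 1 match to bases 2 to 8 of the sense (passenger) strand. No other subunit gene held that match in its longest 3′ UTR, and 12.1% of the 13069 genes did. A match is a description of the sequence, and pairing at these sites was not tested.

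EIF2S1, which encodes the α subunit, had 263.2, 262.4 and 260.9 CPM in siNC 1 to 3 and 89.7, 93.0 and 97.6 CPM in siBYSL 1 to 3. The siNC libraries lay within 3 CPM of each other, and every siBYSL library lay far below them. The mean of siBYSL was 35.6% of that of siNC, a log2 fold change of -1.49 (SE 0.051). In bulk RNA, fewer cells that express a gene and less RNA per cell cannot be told apart. Ordered by fold change EIF2S1 was the gene in place 38 from the lowest of 16412, and place 3 among the 2113 genes with 100 CPM or more in siNC. It kept this size without siBYSL 3 (-1.52), and over all alternatives the value ran from -1.52 to -1.41. The gene (ENSG00000134001.15) spans chr14:67359997-67386516, plus strand. Its exons share 269 bases with ATP6V1D, a proton pump subunit gene on the opposite strand, which averaged 133.8 CPM in siNC against 100.3 in siBYSL. Libraries were strand-specific, but no source used here gives the strand setting of the counting.

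The partners of the α subunit moved far less than EIF2S1, which was picked for its fall. EIF2S2, the β subunit that contacts the regulators eIF5 and eIF2B, had 376.0, 363.7 and 363.5 CPM in siNC 1 to 3 and 322.3, 320.4 and 316.7 CPM in siBYSL 1 to 3. The groups did not overlap, and the log2 fold change was -0.20 (SE 0.048). EIF2S3, the γ subunit that binds GTP and the initiator tRNA, had 256.1, 264.3 and 259.5 CPM in siNC and 243.9, 248.2 and 236.3 CPM in siBYSL. These groups also stood apart, by a smaller gap, and the log2 fold change was -0.098 with a 95% interval from -0.20 to 0.0074.

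**Figure D1:**
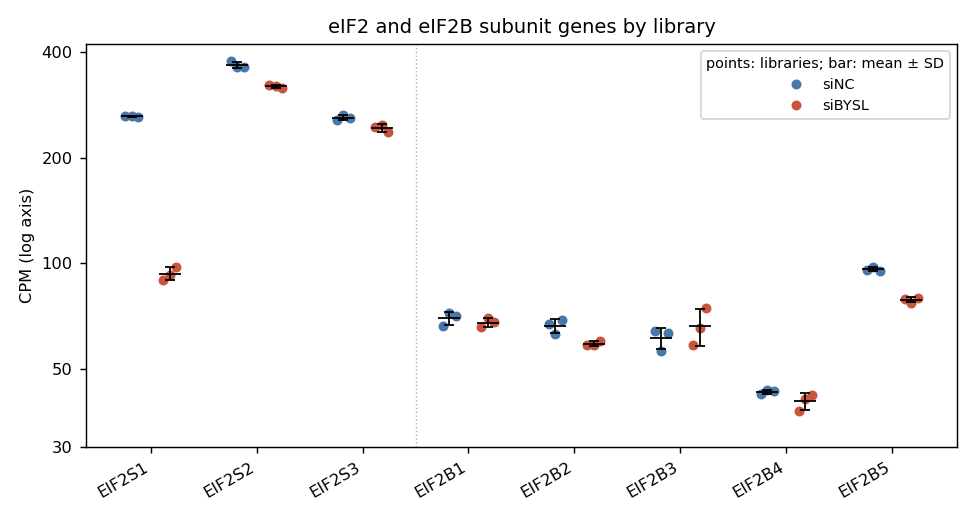
CPM (log axis) of the 3 eIF2 genes and the 5 eIF2B genes in each library, with points for the 3 siNC and 3 siBYSL libraries and bars for mean ± SD. EIF2S1 drops from about 262.2 to 93.4 CPM, while the other 7 genes stay close to their siNC level.

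Counts of the 3 eIF2 genes were also set against each other within each library, a measure that does not depend on how libraries are scaled. After division by the length of each gene's merged exons, EIF2S1 made up 17.8%, 17.9% and 17.9% of the eIF2 total in the control libraries. After BYSL siRNA it made up 7.65%, 7.89% and 8.44%. The mean share of the α subunit transcript was 17.9% ± 0.069 in siNC and 7.99% ± 0.41 in siBYSL. EIF2S2 made up 53.3% ± 0.67 and then 58.2% ± 0.33 of the total, and EIF2S3 28.8% ± 0.60 and then 33.8% ± 0.50, while the CPM of both was lower in siBYSL. The ratio of EIF2S1 to the mean of its partners, per kilobase, was 0.433 to 0.436 in siNC and 0.166 to 0.184 in siBYSL. The ratio to the mean of the eIF2B genes was 3.20 to 3.33 in siNC and 1.21 to 1.24 in siBYSL. Such shares rest on the annotated lengths: with the longest coding transcript in place of merged exons, EIF2S1 made up 20.3% in siNC and 9.21% in siBYSL, and its ratio to the eIF2B mean was 2.15 to 2.21 in siNC and 0.822 to 0.834 in siBYSL.

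**Figure D2:**
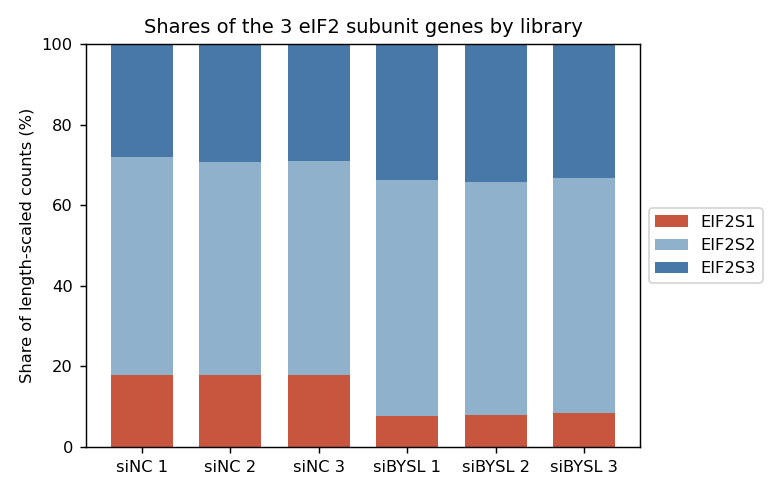
Stacked shares (percent) of length-scaled counts of the 3 eIF2 subunit genes in each of the 6 libraries. The EIF2S1 part is 17.8% to 17.9% in the siNC libraries and 7.65% to 8.44% in the siBYSL libraries.

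The catalytic part of eIF2B is formed by the γ and ε subunits. EIF2B5, the ε subunit that carries the exchange activity, had 95.8, 97.5 and 95.1 CPM in siNC 1 to 3 and 79.4, 77.2 and 79.7 CPM in siBYSL 1 to 3. The groups did not overlap, and the log2 fold change was -0.29 (SE 0.048). EIF2B3, the γ subunit, had 64.2, 56.4 and 63.4 CPM in siNC and 58.6, 65.6 and 74.7 CPM in siBYSL. Its groups overlapped, and library siBYSL 3 was the highest. The log2 fold change of EIF2B3 was 0.11 (95% interval -0.079 to 0.30), or 0.020 without siBYSL 3.

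The regulatory subunits α, β and δ bind the phosphorylated form of eIF2. EIF2B1, the α subunit, had 66.5, 72.3 and 70.6 CPM in siNC 1 to 3 and 65.8, 69.8 and 68.1 CPM in siBYSL 1 to 3. The groups overlapped, with a log2 fold change of -0.040 (95% interval -0.16 to 0.082). The value was 0.038 with library totals and 0.0043 with upper-quartile scaling. Of 4 annotated 3′ UTRs of EIF2B1, 1 held the seed heptamer. EIF2B1 exons share 536 bases with DDX55 on the opposite strand, which averaged 51.6 CPM in siNC against 50.5 in siBYSL, and 28 bases with GTF2H3, which rose from 42.7 to 51.4 CPM (edgeR adjusted p = 0.0390). EIF2B2, the β subunit, had 67.2, 63.1 and 69.2 CPM in siNC and 58.4, 58.7 and 60.1 CPM in siBYSL, a log2 fold change of -0.17 (SE 0.055) with no overlap. EIF2B4, the δ subunit, had 42.5, 43.6 and 43.2 CPM in siNC and 37.9, 41.2 and 42.3 CPM in siBYSL. Its groups lay apart by a narrow margin, with a log2 fold change of -0.091 (95% interval -0.22 to 0.042). Its exons share 199 bases with AC074117.1 on the opposite strand, which rose from 5.83 to 7.90 CPM (edgeR adjusted p = 0.0145).

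In the edgeR quasi-likelihood test over all genes, EIF2S1, EIF2S2, EIF2B2 and EIF2B5 were called lower (Benjamini-Hochberg adjusted p under 0.05) and none of the 8 was called higher. Over all genes tested, 18.4% were called lower, 18.5% higher and 36.9% either way. Of the genes called, 50.04% were higher, or 67.37% with library totals in place of TMM. In 6 of the 8 genes every siBYSL library lay below every siNC library, as it did in 24.9% of all genes. The contrast that chose the set gives these counts, so nothing is read from them. The call of EIF2B2 was lost with upper-quartile scaling and without siNC 1, siNC 3, siBYSL 1 or siBYSL 2, and those of EIF2B2 and EIF2S2 with library totals. The median log2 fold change of the 8 was -0.13, against 0.0066 over all genes. With library totals the medians were -0.056 and 0.085. A change of scaling shifts the fold changes of all genes nearly alike, so nothing about the 8 is read from this.

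Of the other subunit genes, only EIF2B2 lies on the chromosome of EIF2S1 (ENSG00000119718.11, chr14:75002911-75012366, plus strand). EIF2S2 (ENSG00000125977.7) spans chr20:34088298-34112332 on the minus strand and EIF2S3 (ENSG00000130741.11) chrX:24054716-24077971 on the plus strand. EIF2B1 (ENSG00000111361.13) spans chr12:123620406-123633766 and EIF2B3 (ENSG00000070785.17) chr1:44850522-44986722, both on the minus strand. EIF2B4 (ENSG00000115211.16) spans chr2:27364352-27370486 on the minus strand and EIF2B5 (ENSG00000145191.15) chr3:184135038-184146112 on the plus strand.

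**Figure D3:**
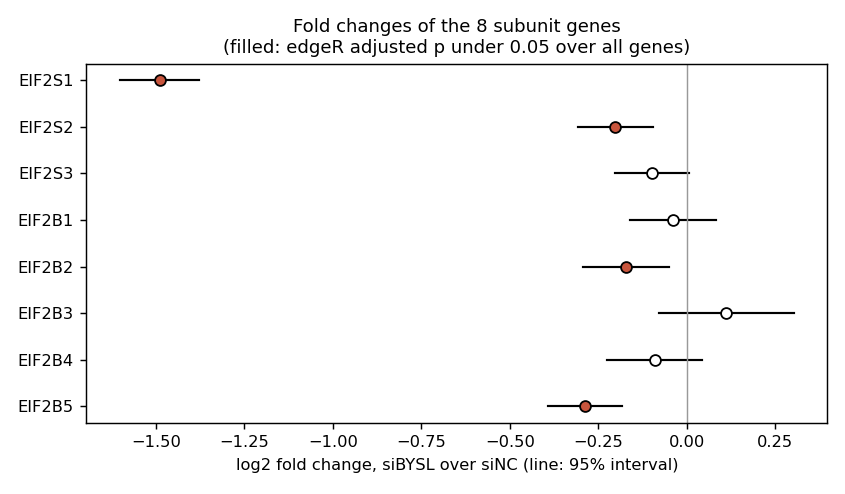
Log2 fold change of each gene, siBYSL over siNC, with its 95% interval; filled points were called in the test over all genes. EIF2S1 stands alone at -1.49, and the other 7 genes lie between -0.29 and 0.11.

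Levels per length showed how the transcripts of the complexes stood to each other in siNC. EIF2S2 had 138.5 ± 2.7 CPM per kilobase of merged exons, EIF2S3 74.9 ± 1.2 and EIF2S1 46.4 ± 0.21. The eIF2B genes followed, with EIF2B1 at 19.3 ± 0.83, EIF2B3 at 18.0 ± 1.3, EIF2B5 at 13.4 ± 0.17, EIF2B2 at 12.2 ± 0.57 and EIF2B4 at 8.07 ± 0.10. The neighbours EIF2B1 and EIF2B3 overlapped across siNC libraries (18.3 to 19.9 against 16.5 to 18.8), and no other neighbours did. In siBYSL EIF2S1 was at 16.5 ± 0.70 CPM per kilobase, which lay among the eIF2B genes, below the means of EIF2B3 (19.4 ± 2.4), with which its libraries overlapped, and EIF2B1 (18.7 ± 0.55). The order within eIF2B depended on the length used, since EIF2B5 led with 36.2 ± 0.47 when its longest coding transcript was taken. On that scale EIF2S1 in siBYSL was at 20.8 ± 0.89, level with EIF2B4 (20.8 ± 1.2) and below EIF2B3, EIF2B5 and EIF2B1. In both scalings all 3 eIF2 genes exceeded all 5 eIF2B genes in siNC. Close copies drew few counts: EIF2S3B had 0 or 1 count per library and the pseudogene EIF2S2P4 18 to 36.

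The kinases that phosphorylate the α subunit did not move together. EIF2AK1, the kinase HRI that senses haem shortage and mitochondrial stress, had 143.2, 150.1 and 147.3 CPM in siNC 1 to 3 and 75.6, 72.7 and 71.3 CPM in siBYSL 1 to 3. It fell to 49.8% of its siNC level (log2 fold change -1.01, SE 0.050, edgeR adjusted p = 6.1e-07). EIF2AK1 shares 532 exon bases with AIMP2 on the opposite strand, which averaged 62.8 CPM in siNC against 50.2 in siBYSL. EIF2AK3, the kinase PERK of the endoplasmic reticulum, fell by 0.32 (SE 0.11, adjusted p = 0.0406), a call lost without any one of siNC 1, siNC 2, siNC 3 and siBYSL 2, and with library totals or upper-quartile scaling. EIF2AK2, the kinase PKR that binds double-stranded RNA, stood at -0.13 (adjusted p = 0.179), and EIF2AK4, the amino acid sensor GCN2, at 0.069 (adjusted p = 0.487). EIF2AK4 passed without siBYSL 3 (log2 fold change 0.15, adjusted p = 0.0056). Of 10 kinases and their activators or inhibitors, 3 fell and 2 rose, against 18.4% lower and 18.5% higher over all genes, so the rises were at about that share. The others called were DNAJC3, an inhibitor of PERK and PKR, which fell by 0.42 (adjusted p = 2.2e-04), the mitochondrial protease OMA1, which rose from 9.97 ± 0.20 to 15.6 ± 0.44 CPM (0.65, adjusted p = 8.6e-05), and IMPACT, which restrains GCN2 and rose by 0.36 (adjusted p = 0.0025). EIF2AK1, DNAJC3 and OMA1 each held the guide-seed heptamer, and OMA1 rose.

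Of 5 genes for removal of the phosphate 3 fell and 1 rose, where all genes gave 18.4% lower and 18.5% higher. PPP1R15A, the stress-induced GADD34 subunit, fell from 129.4 ± 3.0 to 102.1 ± 1.3 CPM (-0.34, edgeR adjusted p = 2.8e-04). PPP1R15B, the constitutive partner CReP, fell from 80.7 ± 1.0 to 62.3 ± 4.7 CPM (-0.37, adjusted p = 8.6e-04). The catalytic subunit genes of protein phosphatase 1, which also serve many other partners, went different ways. PPP1CA fell by 0.31 (adjusted p = 0.0050), PPP1CB rose from 161.7 ± 2.3 to 229.7 ± 11.4 CPM (0.51, adjusted p = 4.4e-05) and PPP1CC stood at 0.046 (adjusted p = 0.494). PPP1CB held the seed heptamer.

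Of 11 tested partners of eIF2 in assembly, scanning and GTP hydrolysis 6 fell and 0 rose, beside 18.4% lower and 18.5% higher over all genes. With library totals or upper-quartile scaling 5 fell, where 1989 and 2418 genes in all were called lower. EIF1AX, the scanning factor eIF1A, fell from 154.1 ± 6.3 to 96.6 ± 2.5 CPM (-0.67, SE 0.052, edgeR adjusted p = 6.7e-06) and held the heptamer. MARS1, the methionyl-tRNA synthetase that charges the initiator tRNA, fell from 162.0 ± 2.3 to 115.9 ± 2.2 CPM (-0.48). BZW1 and BZW2, mimics of eIF5 that compete for eIF2, fell by 0.45 and 0.35. CDC123, the chaperone that assembles eIF2, stood at 157.8 ± 1.9 CPM in siNC and 143.1 ± 4.9 in siBYSL (-0.14, adjusted p = 0.0411). That call was lost with library totals (adjusted p = 0.346) and with upper-quartile scaling (0.145), with no filter, in DESeq2, with the replicate block (0.0959) and without each of the libraries in turn except siBYSL 3. EIF5, the GTPase-activating partner, was at -0.14 (adjusted p = 0.0715).

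All 4 carriers that can place an initiator tRNA without eIF2, or that recycle ribosomes, passed the test, and they split evenly in direction. Over all genes 36.9% passed, 18.4% lower and 18.5% higher. MCTS1 fell from 95.9 ± 3.3 to 55.9 ± 6.1 CPM (-0.78, SE 0.074, edgeR adjusted p = 2.7e-05), with 50.7, 54.3 and 62.6 CPM in siBYSL 1 to 3. DENR, the partner protein of MCTS1, rose from 154.5 ± 2.9 to 192.9 ± 8.1 CPM (0.32, adjusted p = 6.7e-04). MCTS1 held the octamer. EIF2A fell by 0.15 (adjusted p = 0.0473) and EIF2D rose by 0.16 (adjusted p = 0.0297). That of EIF2A was lost with library totals, upper-quartile scaling and the stricter filter. Both of these calls were lost with no filter, in DESeq2, with the replicate block (adjusted p = 0.101 for EIF2A and 0.0847 for EIF2D) and without siNC 1, siNC 2, siNC 3 or siBYSL 2, and that of EIF2D also without siBYSL 1.

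The remaining initiation complexes moved by smaller steps than EIF2S1. That gene was picked for its fall, so nothing is read from this difference. Of 13 eIF3 subunit genes, which form the scaffold of the preinitiation complex, 5 fell and 1 rose (all genes: 18.4% lower, 18.5% higher), with a median of -0.11. EIF3J fell by 0.47 (edgeR adjusted p = 1.1e-04), EIF3L by 0.24 and EIF3E by 0.20, while EIF3F rose by 0.35 (adjusted p = 0.0010). The number that fell was 2 without siNC 1 or without siNC 3, and 3 without siBYSL 2. In these fits 2252, 2105 and 2204 genes in all were called lower. With library totals 2 fell and 2 rose, where 1989 genes in all were called lower and 4106 higher. Without siBYSL 3, 7 fell and 2 rose, where 4075 genes in all were called lower and 3929 higher. Of 12 genes of the cap-binding complex eIF4F and its regulators 4 fell and 1 rose, beside the same shares over all genes of 18.4% and 18.5%. The eIF4E inhibitor EIF4EBP1 fell from 82.8 ± 7.6 to 51.2 ± 7.9 CPM (-0.69, adjusted p = 3.9e-04), EIF4H by 0.32 and the scaffold EIF4G1 by 0.22, and the helicase EIF4A1 rose by 0.51 (adjusted p = 0.0024). Without siBYSL 2, 2 fell, where 2204 genes in all were called lower, against 3027 with all 6 libraries and TMM. With library totals 2 fell as well, where 1989 genes in all were called lower. Without siBYSL 3, 3 rose, where 3929 genes in all were called higher, against 3032 with all 6 libraries. Neither list held a gene at or below -1 on the log2 scale.

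Downstream of eIF2, 24 genes under control of upstream reading frames or of ATF4 were tested. Of these 16 fell and 2 rose, against 18.4% lower and 18.5% higher over all genes, with a median of -0.38. ATF4 had 276.3, 270.3 and 275.6 CPM in siNC 1 to 3 and 181.3, 192.6 and 195.3 CPM in siBYSL 1 to 3, a fall of 0.53 (SE 0.050, edgeR adjusted p = 2.5e-05). Its targets ASNS and CHAC1 each fell by 1.16, GARS1 by 0.74 and PSAT1 by 0.88. PSAT1 held the seed heptamer. The 2 that rose were GDF15, a secreted stress cytokine, from 15.7 ± 1.3 to 32.3 ± 1.9 CPM (1.04, adjusted p = 6.5e-06), and DDIT3, which encodes CHOP, at 0.26 (adjusted p = 0.0464). The groups of DDIT3 overlapped, and its call was lost without siNC 2, siNC 3 or siBYSL 2 and with the replicate number as a block (adjusted p = 0.0589). ATF5 stood at -0.13 (adjusted p = 0.140). Without siBYSL 3, 17 fell and 4 rose. In that fit 4075 genes in all were called lower and 3929 higher, against 3027 and 3032 with all 6 libraries.

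**Figure D4:**
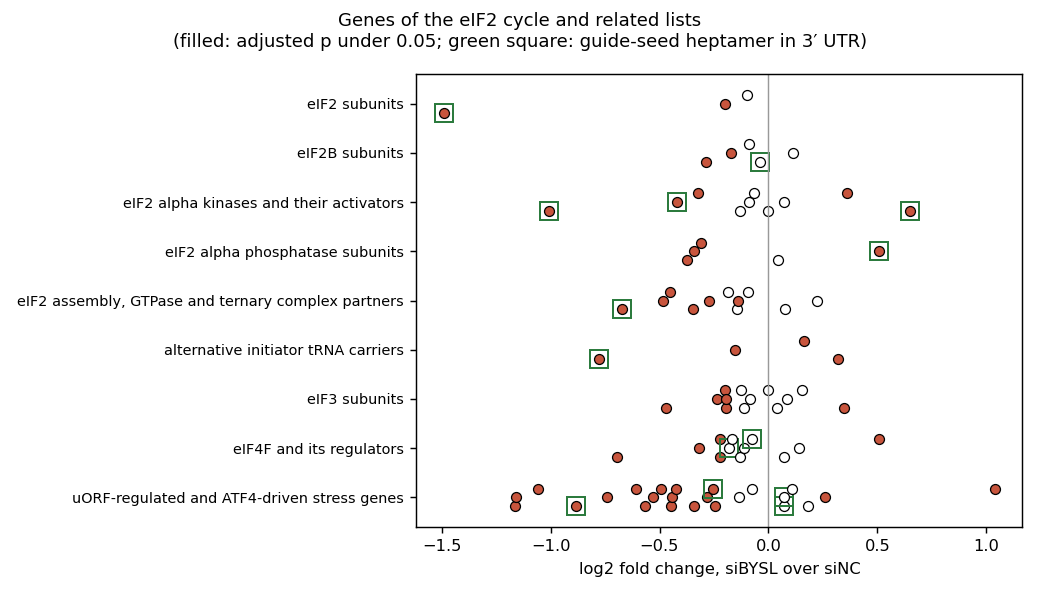
Log2 fold change, siBYSL over siNC, of each tested gene in the eIF2 pathway and related lists; filled points passed the edgeR test and green squares mark a guide-seed heptamer in the longest 3′ UTR. EIF2S1 at -1.49 and EIF2AK1 at -1.01 are the lowest points of their lists and carry squares, and squares also mark genes that rose, such as OMA1 and PPP1CB.

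Across these lists 12 genes other than the 8 subunit genes held the heptamer, of which 6 fell, 2 rose and 4 were not called. Of the 66 without it, 32 fell, 7 rose and 27 were not called. Over all genes with a 3′ UTR, 39.8% of the 412 with the octamer were called lower and 13.3% higher. For the 1137 with the heptamer alone these shares were 31.6% and 15.7%, and for the 11520 with none 19.2% and 20.6%. These classes were not matched for 3′ UTR length, and longer 3′ UTRs hold the heptamer more often. EIF2S1 had the fold change in place 8 from the lowest of the 412. Effects of the siRNA sequence and of BYSL depletion cannot be told apart with 1 siRNA.

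The genes whose profile lay nearest to EIF2S1 were found among 9663 other protein-coding genes of 10 CPM or more, by the root mean square distance of log2 CPM, relative to the siNC mean, over the 6 libraries. They were HMGN4 (distance 0.065), STMN1 (0.096), PIGS (0.10), RAB3IP (0.12) and PRDX2 (0.14). HMGN4, a nucleosome-binding protein gene close in sequence to HMGN2 and so uncertain in its counts, went from 178.9 ± 2.5 to 64.1 ± 2.1 CPM, and PRDX2, a peroxiredoxin gene, from 237.8 ± 12.1 to 94.4 ± 12.5 CPM. All 5 held the guide octamer in the longest 3′ UTR, as did EIF2S1, against 3.15% of the 13069 genes searched. The 5 genes were found by the same fall, so this is a description.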

How the data were processed

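Strand-specific poly(A) RNA-seq of 6 MDA-MB-231 libraries was analysed from raw counts per gene, which were deposited by the authors as whole numbers; HISAT2, DESeq2 and build GRCh38.p13 are named without role, per the submitters' processing notes, and no source used here gives the counting tool, strand setting or annotation. Counts were filtered (filterByExpr), TMM-scaled and compared by the edgeR 4.0.16 quasi-likelihood test (robust, group only; R 4.3.3) with Benjamini-Hochberg adjustment over 16412 genes and a threshold of 0.05. SEs were derived from the fold change and its F statistic. p-values describe 3 against 3 cultures of a single line; the common biological coefficient of variation was 0.0649, and depth was 27754883 to 32088817 counts. The fit was run on data simulated with the common variation for every gene and few genes changed. It called 40.8% of 49 genes changed 1.25-fold, 100% of 49 changed 4-fold and 0.0312% of 16020 unchanged genes. In the real data 36.9% of genes were called, so the simulation does not give the error rate here. GENCODE 29 gave lengths, 3′ UTRs and sites, and need not be the authors' release; 16229 of 16409 identifiers matched. The genes and lists were chosen with earlier results of these data known. Named list genes were those called, or the 4 with the smallest p where more than 4 were; ATF4, EIF2AK3, CDC123, GDF15, DDIT3, the line markers and antisense neighbours were named after their values were seen. Alternatives were other scalings, filters, DESeq2 1.42.0, limma-voom (limma 3.58.1), a replicate block and each library left out.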

Additional observations from a re-analysis of the deposited data

How the results depend on the processing

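Across 14 alternatives EIF2S1, EIF2B1, EIF2B3, EIF2B4, EIF2B5 and EIF2S3 stayed on their side of the threshold. The number of eIF2 and eIF2B genes called lower was 3 to 4 with a library left out and 2 with library totals; 0 were called higher in any. With library totals 1989 genes in all were called lower and 4106 higher, against 3027 and 3032 with TMM. With a library left out 4226 to 8004 were called, 2121 to 3929 higher and 2105 to 4075 lower. Deviations from the group mean correlated at -0.13, 0.060 and 0.011 between siNC and siBYSL libraries of the same replicate number. Between libraries of different numbers the values ran from -0.17 to 0.15. With 3 libraries per group this check cannot exclude that samples were handled in pairs. With the replicate block 5566 genes were called, 2764 lower and 2802 higher, and EIF2B2 was lost (adjusted p = 0.0693, edgeR). With that block 1 alternative carrier fell, 1 rose and 1 ATF4-driven gene rose. With library totals 1 carrier, 2 eIF3 and 2 eIF4F genes fell, and 2 eIF3 and 4 ATF4-driven genes rose. With upper-quartile scaling 1 carrier and 3 eIF3 genes fell and 4 ATF4-driven genes rose. Over all genes 2418 were called lower and 3630 higher with that scaling. With no filter and in DESeq2 1 carrier fell and 1 rose, and with the stricter filter 1 fell. Over all genes 3474, 2822 and 2852 were called lower in these settings, and 3163, 2645 and 2991 higher. With a library left out, 1 to 2 carriers fell and 1 to 2 rose, 2 to 7 eIF3 genes fell and 1 to 2 rose, 2 to 6 eIF4F genes fell and 1 to 3 rose, and 1 to 4 ATF4-driven genes rose. The share of EIF2S1 was 29.5% in siNC and 14.2% in siBYSL from raw counts, and 20.3% and 9.21% with transcript lengths, an alternative chosen after seeing the data. The cause of these changes was not tested.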
